A study of Arabidopsis thaliana with 8 samples.

Results

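The 9 Arabidopsis thaliana genes named MLP for major latex protein-like were followed across 4 genotypes, out of 33602 genes in the deposited table. They are MLP328, MLP329, MLP28, MLP31, MLP34, MLP43, MLP165, MLP168 and MLP423, taken by locus identifier, and 9 genes carry such a name both in the table and in RefSeq. The seedlings were double mutants carrying cob-6 and sfr6-3 (cob-6sfr6-3), cob-6 single mutants, sfr6-3 single mutants and the wild type Col-0 (WT), all 7 days old and kept in 24 h of light, with 2 libraries per genotype. COB, the gene of the cob-6 allele, makes a protein anchored to the cell surface that plants need for ordered cellulose in growing walls. MED16, the gene of the sfr6-3 allele, makes a subunit in the tail of Mediator, the complex that links transcription factors to RNA polymerase. RNA came from whole seedlings, per the labels. The labels do not say whether the 2 libraries of a genotype came from separately grown plants, so the p-values rest on a spread between libraries that may be technical. RNA was sequenced with paired 100-base reads, per the labels.

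Major latex proteins belong to the Bet v 1 superfamily, small proteins that fold around a hydrophobic pocket and were first described in the latex of opium poppy. The pollen allergen of birch, pathogenesis-related proteins of class 10 and the PYR/PYL receptors of abscisic acid share this fold. Family members have been linked to growth, flowering, drought and defence, and the ligand of most of them is unknown. MLP328 and MLP329 also carry the names ZCE1 and ZCE2 in RefSeq, for their response to cis-cinnamic acid, and MLP43 has been described as a positive regulator of abscisic acid responses.

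MLP328 was selected on its lower reads in cob-6 than in WT, so its values in that contrast, and in the interaction that contains it, are a description with no test. The other 8 genes were taken for their family name, with results of these libraries already known. All changes compare reads unique to a gene in edgeR's quasi-likelihood test, adjusted by Benjamini-Hochberg over 20955 genes, and a change is called at an adjusted p below 0.05. Levels are CPM, that is unique reads scaled to the library total with TMM factors, and changes are log2 ± SE. In RNA of whole seedlings, fewer cells of a type and less RNA per cell cannot be told apart.

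Unique reads per library ranged from 22841714 to 35719762, apart from WT replicate 1 with 307544522. In that library 0 of 25179 genes had fewer unique reads than the other 7 libraries summed, and 1178 had exactly the sum. For MLP31 it held 12 reads where the others summed to 11. For every gene it thus held at least the reads of the other 7 libraries together, a floor that a separately read library need not keep, so it is not treated as independent of them and the 2 libraries of WT are not 2 independent replicates. Changes of the members against WT are therefore given with and without it and, for MLP328, MLP329 and MLP34, with the reads of the other 7 libraries subtracted. COB had CPM of 87.0 and 74.2 in the double mutant, 72.1 and 70.5 in cob-6, 197 and 197 in sfr6-3, and 151 and 252 in WT. MED16 had CPM of 11.4 and 7.89 in the double mutant, 30.9 and 41.2 in cob-6, 9.05 and 8.91 in sfr6-3, and 25.6 and 36.4 in WT. Each target gene was lower in the genotypes that carry its allele, in each of their libraries. The replicates of the double mutant correlated least across genes, at r = 0.935 against 0.966 to 0.978 in the other genotypes.

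Most of these genes lie in 3 small clusters, and the sequences show which copies can be told apart by 100-base reads. MLP328 (AT2G01520, chr2:235925-237147) and MLP329 (AT2G01530, chr2:239705-240520) are neighbours on chromosome 2, 2557 bases apart, each with 2 exons. MLP28 (AT1G70830, chr1:26709947-26711462), MLP31 (AT1G70840, chr1:26712982-26714066), MLP34 (AT1G70850, chr1:26714866-26716829) and MLP43 (AT1G70890, chr1:26725626-26726544) lie within 16598 bases on chromosome 1. MLP165 (AT1G35260, chr1:12936849-12937787) and MLP168 (AT1G35310, chr1:12956159-12957090) lie 18371 bases apart, and MLP423 (AT1G24020, chr1:8500400-8502065) stands alone. No annotated gene overlaps a member, and these positions come from the deposited table. On each of the 5 chromosomes 1779 to 2409 genes had the same start and end in TAIR10.1, of the members only MLP165, and the other members differ at 1 or both ends.

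The 2 pairs of copies that the results turn on are shown by a stretch of their RefSeq coding sequence (TAIR10.1), 5′ to 3′, with the bases that differ within the pair in capitals. For MLP328 and MLP329 these are coding positions 1 to 150 on chromosome 2, and for MLP28 and MLP34 they are positions 535 to 684 and 478 to 627 on chromosome 1.
MLP328 coding: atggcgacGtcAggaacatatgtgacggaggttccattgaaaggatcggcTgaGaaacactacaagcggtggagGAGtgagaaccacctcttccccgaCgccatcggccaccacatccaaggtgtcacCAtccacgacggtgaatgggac
MLP329 coding: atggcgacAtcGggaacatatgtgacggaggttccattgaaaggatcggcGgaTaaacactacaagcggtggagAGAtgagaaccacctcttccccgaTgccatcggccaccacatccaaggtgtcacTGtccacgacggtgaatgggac
MLP28 coding: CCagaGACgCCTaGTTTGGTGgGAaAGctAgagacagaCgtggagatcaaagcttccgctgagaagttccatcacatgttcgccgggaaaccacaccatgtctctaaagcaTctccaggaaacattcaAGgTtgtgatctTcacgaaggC
MLP34 coding: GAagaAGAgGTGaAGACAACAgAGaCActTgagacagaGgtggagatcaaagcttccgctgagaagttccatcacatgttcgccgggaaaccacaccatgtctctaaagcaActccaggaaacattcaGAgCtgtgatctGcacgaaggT
The first pair differed at 10 of these 150 bases and the second at 28. Over the whole coding sequence MLP328 and MLP329 were 89.7% identical over 456 bases, and MLP28 and MLP34 were 89.9% identical over 950. The longest run shared without a difference was 38 bases in the first pair and 72 bases in the second, shorter than a read in both, and the 28 differences of the second pair flank its longest run. Reads unique to the gene made up between 98.98% and 100% of all reads of each member, lowest in MLP28 and MLP34. MLP165 and MLP168 were 82.9% identical, whereas MLP328 and MLP34 were only 57.2% identical, so the pair of genes on chromosome 2 is not close in sequence to MLP34.

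MLP328 was lower in every mutant library than in either WT library. It had CPM of 9.27 and 13.5 in the double mutant, 7.86 and 10.8 in cob-6, 18.9 and 13.4 in sfr6-3, and 27.7 and 59.3 in WT. Both WT libraries lay above all 6 mutant libraries, the double mutant overlapped each single mutant, and cob-6 lay below sfr6-3. With the other 7 libraries subtracted, WT replicate 1 stood at 40.7 CPM. The mean CPM was 11.4 ± 3.0 in the double mutant, 9.31 ± 2.06 in cob-6, 16.2 ± 3.9 in sfr6-3 and 43.5 ± 22.4 in WT (SD, n = 2 each). The gap between cob-6 and the double mutant was smaller than the SD in the double mutant.

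The value that chose MLP328 was its log2 change of -2.21 ± 0.33 in cob-6 against WT, which was -2.67 without WT replicate 1 and -1.57 without WT replicate 2. Its change was -1.92 ± 0.32 in the double mutant against WT and -1.42 ± 0.32 in sfr6-3 against WT, and these were -2.37 and -1.88 without WT replicate 1, but -1.28 and -0.78 without WT replicate 2. With the other 7 libraries subtracted from WT replicate 1, the changes were -2.14 in the double mutant, -2.44 in cob-6 and -1.64 in sfr6-3. These contrasts share the WT libraries with the choice, so no p is given for MLP328. The double mutant and cob-6 differed by 0.30 ± 0.33, with a 95% interval from -0.41 to 1.01, and share the cob-6 libraries with the choice. The change of MLP328 in the double mutant against sfr6-3, less its change in cob-6 against WT, was 1.72 ± 0.46, and it was 2.17 without WT replicate 1 and 1.07 without WT replicate 2.

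The contrast of the double mutant with sfr6-3 compares no library of the choice, so it is given with a test for MLP328. That test is not wholly apart from the choice, since the cob-6 and WT libraries enter its estimate of spread. WT replicate 1 is also not treated as independent of the libraries compared. There the difference was -0.50 ± 0.32 (adjusted p = 0.494), with a 95% interval from -1.19 to 0.20, and the groups touched, with 13.5 CPM in one double mutant library and 13.4 CPM in one sfr6-3 library. In the 6 mutant libraries alone it was -0.50 ± 0.27 (adjusted p = 0.428). A further drop of MLP328 by cob-6 in the sfr6-3 background was not detectable with these libraries.

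MLP329, the neighbour of MLP328, was lower in the double mutant than in WT and stood in a fixed order across the genotypes. It had CPM of 20.5 and 24.6 in the double mutant, 34.7 and 28.2 in cob-6, 54.3 and 42.8 in sfr6-3, and 59.9 and 129 in WT. The 4 genotypes did not overlap in this order, which held for 6 of all 20955 tested genes (0.0286%), though it was noticed after the values were seen. The mean CPM was 22.6 ± 2.9 in the double mutant, 31.5 ± 4.6 in cob-6, 48.5 ± 8.1 in sfr6-3 and 94.7 ± 49.2 in WT (SD, n = 2 each). The gap between sfr6-3 and WT was smaller than the SD in WT, and the other gaps were larger than the SDs on both sides.

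MLP34, which lies on another chromosome, followed nearly the same course. It had CPM of 115 and 119 in the double mutant, 133 and 145 in cob-6, 284 and 185 in sfr6-3, and 250 and 528 in WT. The double mutant libraries were lowest and cob-6 next without overlap, while sfr6-3 replicate 1 lay above WT replicate 1. Across the 7 libraries without WT replicate 1, the log2 CPM of MLP329 and MLP34 correlated at r = 0.977, and across the 6 mutant libraries alone at r = 0.924. These points share libraries and genotypes, so the correlation is a description.

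**Figure D1:**
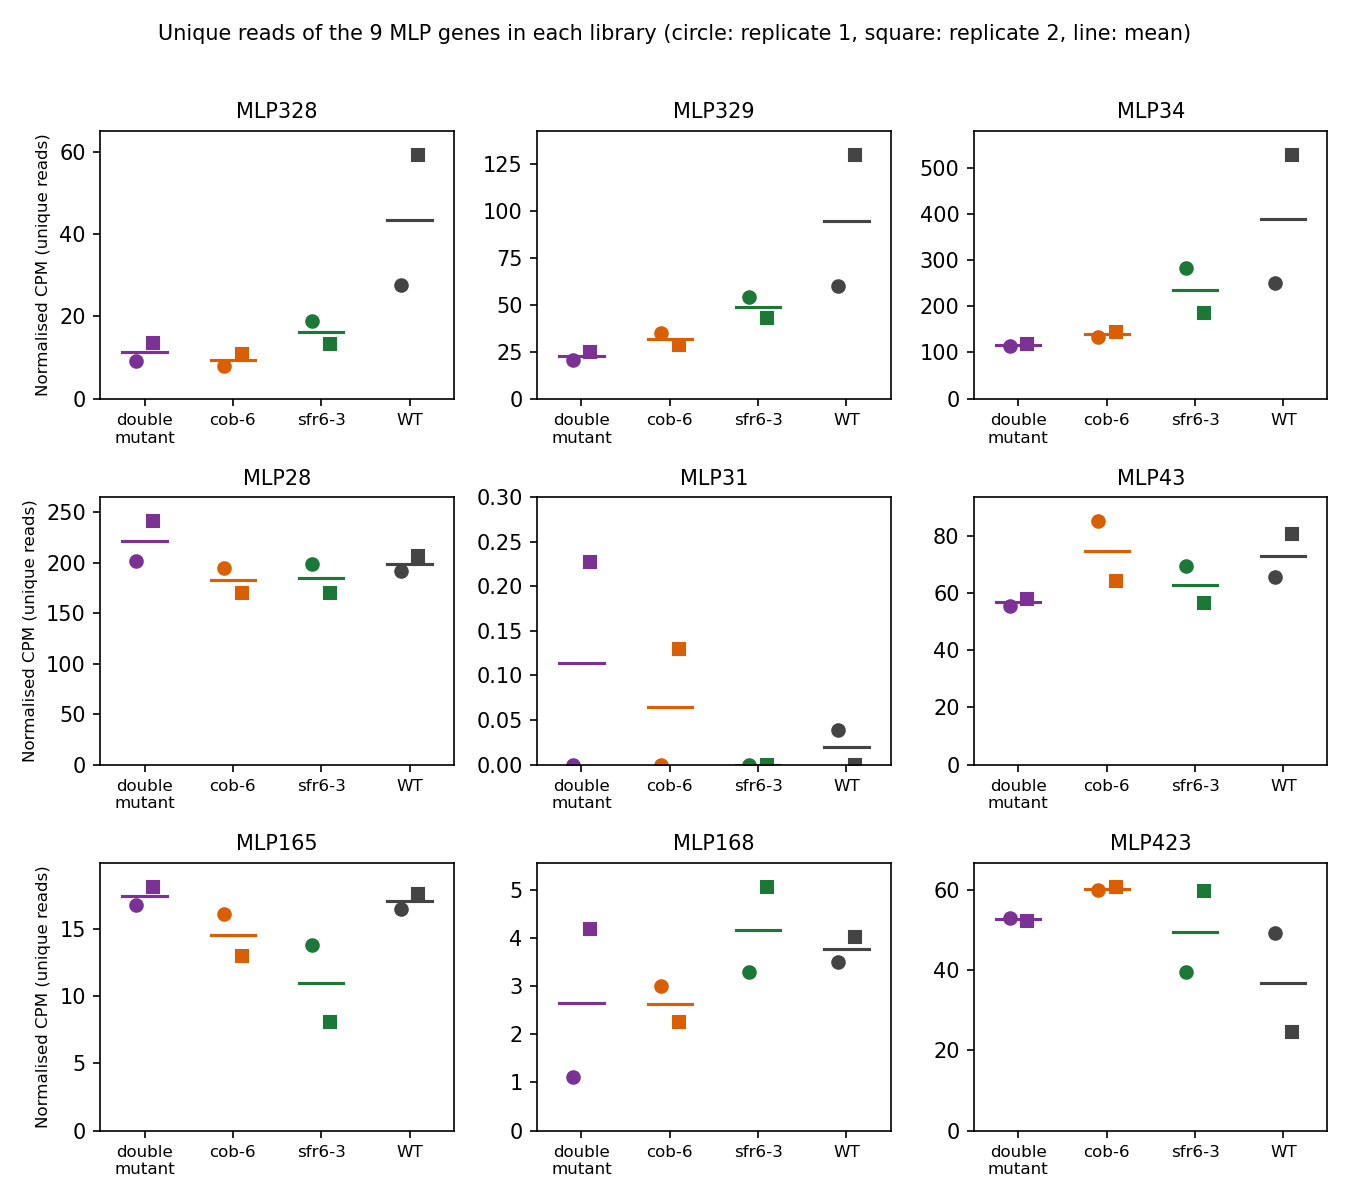
Normalised CPM of unique reads for each of the 9 MLP genes (y axes, each from 0 and each with its own range) by genotype (x axes: double mutant, cob-6, sfr6-3, WT), with 1 point per library and a line at the mean of 2 libraries. MLP328, MLP329 and MLP34 have their highest value in WT replicate 2, at 59.3, 129 and 528 CPM, while MLP28 lies between 170 and 241 CPM in all libraries.

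Against WT, the double mutant had 3 of the 8 tested members called lower, where 0.988% of all tested genes were, and 0 called higher, with 1.09% called in either direction. MLP329 fell by 2.06 ± 0.28 (adjusted p = 0.00404) and MLP34 fell by 1.73 ± 0.28 (adjusted p = 0.00947), and the third was MLP328, whose call shares the WT libraries with its choice. Without WT replicate 1 the values were -2.52 and -2.17, with WT replicate 2, the highest library of both genes, as the only wild type. Without WT replicate 2 they were -1.41 and -1.09, and the only wild type was then WT replicate 1, which is not treated as independent. With the other 7 libraries subtracted they were -2.22 (adjusted p = 5.46e-05) and -1.85 (adjusted p = 0.000344). The call on MLP34 was lost without double mutant replicate 2, at -1.76 (adjusted p = 0.0715). MLP328 was no longer called without WT replicate 2, at -1.28, or without double mutant replicate 1, at -1.67. The median change of the 8 tested members was -0.42, beside 0.02 over all tested genes.

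Between the double mutant and sfr6-3, 0 of the 8 tested members were called, where 0.229% of all tested genes were. At an unadjusted p below 0.05, 2 members were lower and 1 was higher, and 14.7% of all tested genes passed that mark. MLP329 stood at -1.10 ± 0.28 (adjusted p = 0.136) and MLP34 at -1.01 ± 0.28 (adjusted p = 0.153), with 95% intervals from -1.71 to -0.50 and from -1.60 to -0.41. Neither gene overlapped between these groups, which was so for 20.6% of all tested genes in this direction.

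The WT libraries enter this test through the shared estimate of spread and the filter on low counts, and the calls on both genes depended on the setting. In the 6 mutant libraries alone MLP329 gave -1.10 ± 0.19 (adjusted p = 0.0200) and MLP34 gave -1.01 ± 0.18 (adjusted p = 0.0275), with 0.428% of all genes called. Without WT replicate 1 the adjusted p were 0.0130 and 0.0204, with 0.612% called, and without WT replicate 2 they were 0.0121 and 0.0163. With the other 7 libraries subtracted from WT replicate 1, MLP329 passed (adjusted p = 0.0376) and MLP34 did not (adjusted p = 0.0702), with 0.452% called. With no filter on low counts both passed (adjusted p = 5.32e-08 and 6.80e-07), but that setting called 833 genes where the main fit called 48. DESeq2 called 1 member among 511 genes, MLP329 (adjusted p = 0.00781), and not MLP34 (adjusted p = 0.210). Neither passed when a double mutant, cob-6 or sfr6-3 library was left out, with adjusted p from 0.127 to 0.411 for MLP329 and from 0.135 to 0.488 for MLP34, whose change was -0.67 without sfr6-3 replicate 1. With the replicate number as a block the adjusted p were 0.165 and 0.193.

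Between the double mutant and cob-6, 0 of the 8 tested members were called, where 1.58% of all tested genes were, and DESeq2 called 0. MLP329 stood at -0.48 ± 0.28 (adjusted p = 0.412) and MLP34 at -0.25 ± 0.28 (adjusted p = 0.690). Their 95% intervals ran from -1.08 to 0.13 and from -0.85 to 0.35. At an unadjusted p below 0.05, 1 member was lower, MLP43 at -0.40 ± 0.17 (adjusted p = 0.267), and 17.1% of all tested genes passed that mark. In the authors' deposited table of the same contrast, which gives a signed fold with the sign as direction, MLP329 had -1.37 (p = 0.185), MLP34 -1.19 (p = 0.420) and MLP43 -1.32 (p = 0.0453). For MLP328 the authors' deposited table gave a fold of 1.24, in the same direction as the fit.

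Between sfr6-3 and WT, 0 of the 8 tested members were called, where 0.153% of all tested genes were. At an unadjusted p below 0.05, 4 members were lower, namely MLP328, MLP329, MLP34 and MLP165. MLP328 shares the WT libraries with its choice, so its place in this count is only a description. Of all tested genes 5.59% passed that mark. DESeq2 called 2 members among 170 genes, a count that does not leave out MLP328. MLP329 stood at -0.96 ± 0.28 (adjusted p = 0.368) and MLP34 at -0.73 ± 0.28 (adjusted p = 0.716). Without WT replicate 1, which leaves WT replicate 2 as the only wild type, they were -1.42 (adjusted p = 0.00368) and -1.17 (adjusted p = 0.0139), with 0.819% of all genes called. Without WT replicate 2 they were -0.30 and -0.09. With the other 7 libraries subtracted from WT replicate 1, MLP329 stood at -1.12 (adjusted p = 0.0223) and MLP34 at -0.85 (adjusted p = 0.135), with 0.718% called. The size of any drop of these 2 genes in sfr6-3 thus rested on which WT library was used.

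Between cob-6 and WT, MLP329 stood at -1.58 ± 0.28 and MLP34 at -1.48 ± 0.28, as a description beside MLP328. Without WT replicate 1 they were -2.04 and -1.92, with the other 7 libraries subtracted from it -1.74 and -1.60, and without WT replicate 2 only -0.93 and -0.84. Neither passed the threshold with all 8 libraries, and the values of the other settings are a description with no test. In that contrast 0.0954% of all tested genes were called and 0.0859% were called lower, and MLP328 was the 1 member among them, which is how it was chosen. In the interaction 0.0191% of all tested genes were called and 0 members, with MLP329 at 0.48 ± 0.39 and MLP34 at 0.48 ± 0.39. Without WT replicate 1 these became 0.94 and 0.92, and without WT replicate 2 they became -0.17 and -0.16. The interaction shares its libraries with the choice and is given without a test.

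**Figure D2:**
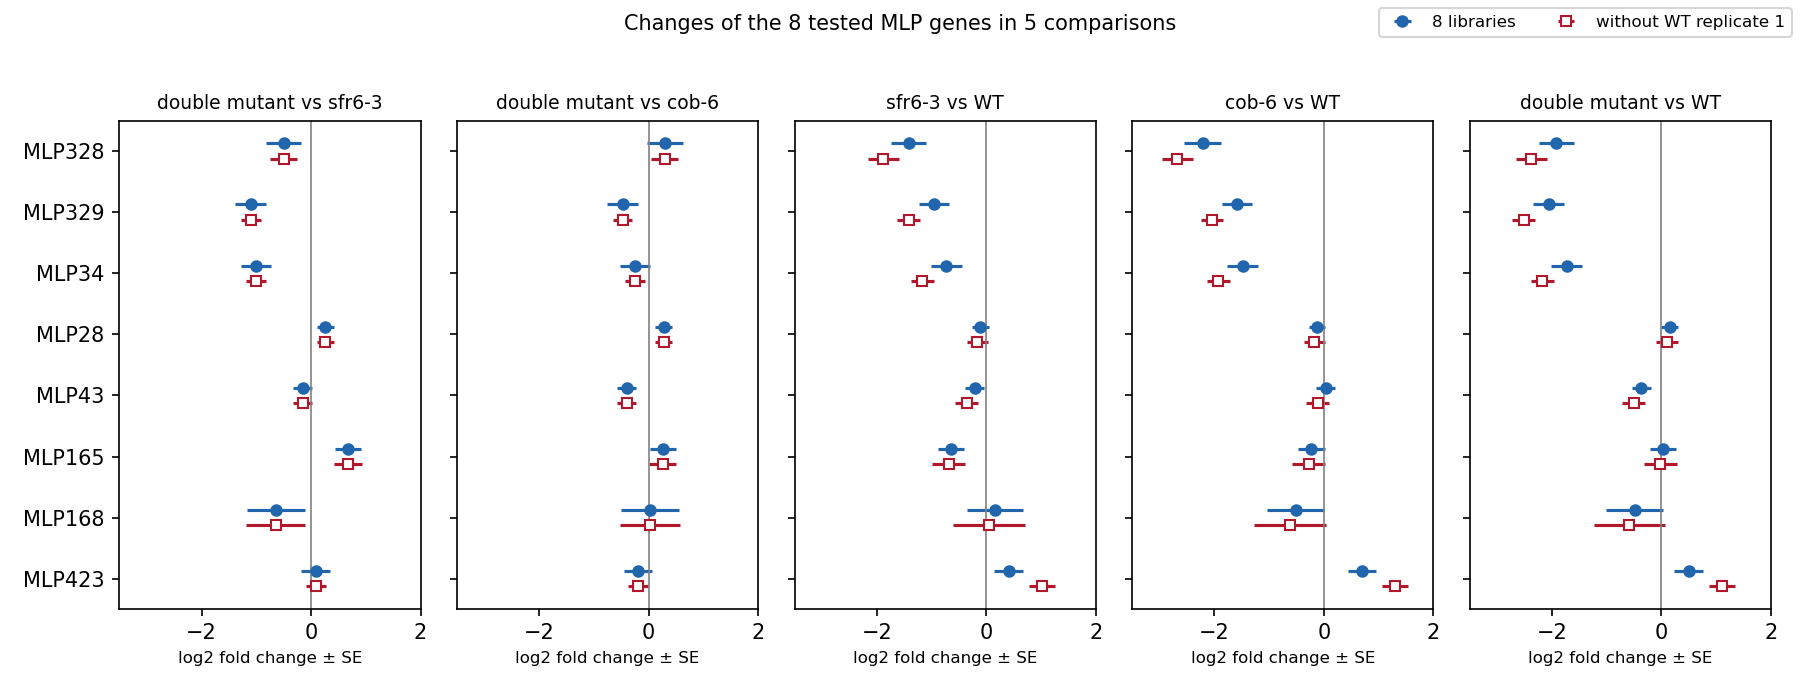
Log2 fold change ± SE (x axes) of the 8 tested MLP genes (rows) in 5 comparisons (panels), from all 8 libraries (filled circles) and without WT replicate 1 (open squares). MLP328, MLP329 and MLP34 lie left of 0 in each comparison with WT and move further left without WT replicate 1, as with MLP329 at -2.06 and -2.52 in the double mutant against WT.

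MLP28, the close copy of MLP34, varied little between libraries. It had CPM of 202 and 241 in the double mutant, 195 and 170 in cob-6, 199 and 170 in sfr6-3, and 192 and 206 in WT. The highest library exceeded the lowest only 1.42-fold, against 4.59-fold for MLP34 and 7.55-fold for MLP328. Its change was 0.15 ± 0.15 in the double mutant against WT (adjusted p = 0.673, 95% interval from -0.18 to 0.48; 0.10 without WT replicate 1), and 0.26 ± 0.15 in the double mutant against sfr6-3 (adjusted p = 0.446).

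Because both copies were read in the same libraries, their ratio needs no scaling between libraries. MLP34 had 0.569 and 0.494 reads per MLP28 read in the double mutant, 0.682 and 0.852 in cob-6, 1.43 and 1.09 in sfr6-3, and 1.30 and 2.56 in WT. MLP28 led in the 4 libraries that carry cob-6 and MLP34 led in the 4 that do not. The 2 cob-6 genotypes did not overlap each other in this ratio, and sfr6-3 overlapped WT. This ratio was chosen after its values were seen and was not tested. The ratio of MLP329 to MLP328 reads lay between 1.82 and 2.22 in the double mutant, 2.62 and 4.41 in cob-6, 2.87 and 3.19 in sfr6-3, and at 2.16 and 2.18 in WT, so MLP329 was read more in each library.

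**Figure D3:**
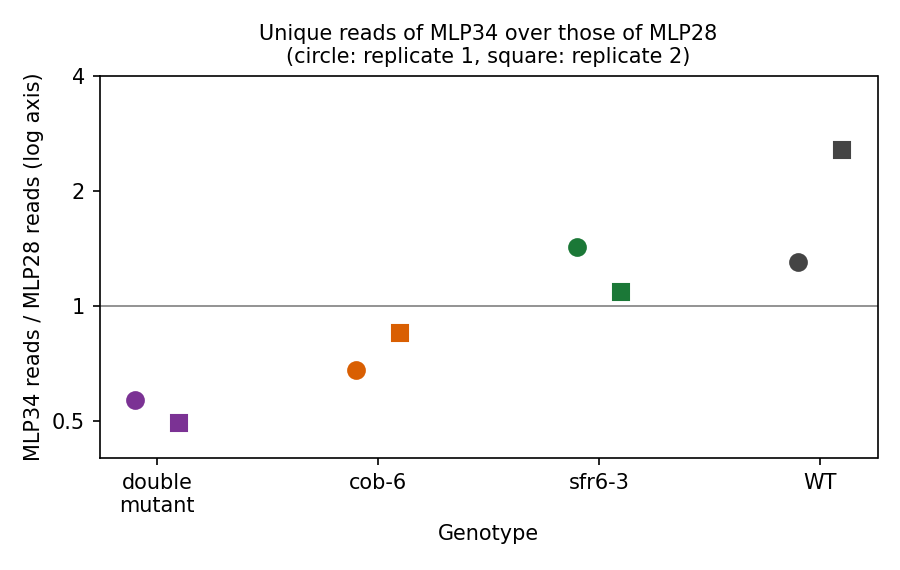
Unique reads of MLP34 divided by those of MLP28 (y axis, log scale) in each library, by genotype (x axis: double mutant, cob-6, sfr6-3, WT), with a grey line at equal reads. The 4 libraries that carry cob-6 lie between 0.494 and 0.852 and the other 4 between 1.09 and 2.56.

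The other genes of the chromosome 1 cluster were called in no contrast or were hardly read. MLP43 had CPM of 55.4 and 58.1 in the double mutant, 85.2 and 64.3 in cob-6, 69.5 and 56.4 in sfr6-3, and 65.7 and 80.6 in WT. The double mutant lay below cob-6 and WT but overlapped sfr6-3, and against WT it stood at -0.36 ± 0.17 (adjusted p = 0.353), and at -0.51 without WT replicate 1 (adjusted p = 0.207). MLP31 had 0 and 8 reads in the double mutant, 0 and 3 in cob-6, 0 and 0 in sfr6-3, and 12 and 0 in WT, and was left out of the test by the filter on low counts. A count of 0 in the sfr6-3 libraries allows up to 0.123 and 0.118 CPM (3 reads each, counting error only).

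MLP165 had its lowest mean in sfr6-3, which overlapped cob-6. It had CPM of 16.8 and 18.1 in the double mutant, 16.1 and 13.0 in cob-6, 13.8 and 8.08 in sfr6-3, and 16.5 and 17.6 in WT. The double mutant lay above sfr6-3 without overlap, at 0.67 ± 0.24 (adjusted p = 0.231). The share of all genes with such a split in this direction was not counted. Against WT sfr6-3 lay lower, at -0.64 ± 0.24 (adjusted p = 0.715), or at -0.69 without WT replicate 1. MLP168, its neighbour, was the least read of the tested members, with CPM of 1.11 and 4.17 in the double mutant, 3.00 and 2.25 in cob-6, 3.29 and 5.05 in sfr6-3, and 3.51 and 4.02 in WT. The double mutant libraries spanned nearly its whole range, on 27 and 147 reads, and no difference was detectable at this depth.

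MLP423 ran the other way from MLP328. It had CPM of 53.0 and 52.3 in the double mutant, 60.0 and 60.7 in cob-6, 39.4 and 59.7 in sfr6-3, and 49.2 and 24.5 in WT. WT replicate 2 was the lowest of all libraries and cob-6 the highest, and the double mutant lay above both WT libraries. The change was 0.50 ± 0.26 in the double mutant against WT (adjusted p = 0.397) and 0.41 ± 0.26 in sfr6-3 against WT, with a 95% interval from -0.15 to 0.98. Without WT replicate 1 it was 1.10 in the double mutant (adjusted p = 0.0153, with 3.91% of all genes called) and 1.02 in sfr6-3 (adjusted p = 0.0628), and without WT replicate 2 it was 0.10 and 0.01. Against cob-6 the double mutant stood at -0.20 ± 0.26 (adjusted p = 0.749). MLP423 was the only member in the authors' deposited list of genes described as altered in cob-6 but unaltered in the double mutant, which holds 147 genes or 0.437% of the count table. In cob-6 against WT the fit gave 0.70 ± 0.26 for MLP423, as a description, and did not call it with all 8 libraries. That change was 1.30 without WT replicate 1 and 0.29 without WT replicate 2.

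Per length of exon, the members differed widely in level. In the double mutant, MLP28 was highest at 151 and 180 CPM per kb and MLP34 next at 88.3 and 92.0 CPM per kb, while in WT MLP34 was highest at 193 and 407 CPM per kb and MLP28 next at 143 and 154 CPM per kb. MLP329 averaged 30.2 CPM per kb in the double mutant and 124 in WT, and MLP328 averaged 14.4 in the double mutant and 54.7 in WT. The 9 members had summed CPM of 473 and 531 in the double mutant, 535 and 495 in cob-6, 683 and 541 in sfr6-3, and 664 and 1049 in WT. The sum overlapped between the double mutant and cob-6, lay higher in sfr6-3, and overlapped between sfr6-3 and WT. MLP34 made up 24.3% and 22.4% of these reads in the double mutant and 37.6% and 50.3% in WT.

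The bases just before the genes are shown for the 3 members that were low in the double mutant, as the 300 bases before the RefSeq gene start on the coding strand (TAIR10.1), 5′ to 3′. Capitals mark TATAAA, a core promoter element read on the coding strand only and searched for after the other motifs. The windows are chr2:235625-235924 on the plus strand for MLP328, chr2:239369-239668 on the plus strand for MLP329, and chr1:26716902-26717201 on the minus strand for MLP34.
MLP328 upstream: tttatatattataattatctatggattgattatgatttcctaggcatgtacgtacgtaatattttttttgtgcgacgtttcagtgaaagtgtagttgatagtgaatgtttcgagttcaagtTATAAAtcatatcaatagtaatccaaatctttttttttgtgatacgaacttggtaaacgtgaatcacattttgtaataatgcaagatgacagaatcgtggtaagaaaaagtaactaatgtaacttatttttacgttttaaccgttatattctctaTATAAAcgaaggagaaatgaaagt
MLP329 upstream: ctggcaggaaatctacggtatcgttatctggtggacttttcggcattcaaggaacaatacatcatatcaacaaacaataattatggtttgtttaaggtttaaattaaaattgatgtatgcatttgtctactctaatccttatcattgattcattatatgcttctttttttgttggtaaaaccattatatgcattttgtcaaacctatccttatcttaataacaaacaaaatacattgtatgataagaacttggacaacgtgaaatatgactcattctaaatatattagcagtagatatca
MLP34 upstream: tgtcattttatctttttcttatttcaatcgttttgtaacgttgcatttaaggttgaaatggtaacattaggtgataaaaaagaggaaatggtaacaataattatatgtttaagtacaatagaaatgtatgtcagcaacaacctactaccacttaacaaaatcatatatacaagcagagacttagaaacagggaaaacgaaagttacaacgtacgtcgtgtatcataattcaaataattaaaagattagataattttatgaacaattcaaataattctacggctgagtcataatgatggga
The MLP328 window held TATAAA 179 and 24 bases before the gene start, and the windows of MLP329 and MLP34 held none. Of 27443 windows of this length before all RefSeq genes, 37.0% held it. On both strands, CACGTG (the G-box, in 7.09% of all windows), CCGAC (the core of the dehydration-responsive element, 13.9%), TTGACC or TTGACT (the W-box, 32.3%) and GCCGCC (the GCC-box, 2.26%) were found in 0 of the 9 member windows. A missing match says only that these letters are not in this window.

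Other genes listed as of the same family were followed beside the members. The list held 20 further genes taken as MLP subfamily genes, of which 12 passed the filter on low counts. RefSeq annotates these 20 as polyketide cyclase/dehydrase and lipid transport superfamily proteins, and the members as MLP-like proteins. Against WT the double mutant had 2 of the 12 called lower and 0 higher, with a median of -0.30, where 0.988% of all tested genes were called lower. Against cob-6 it had 1 higher and 0 lower, with a median of -0.05, where 1.58% of all tested genes were called. Against sfr6-3 it had 0 called, where 0.229% of all tested genes were. At an unadjusted p below 0.05, 1 was higher and 3 were lower there, and 14.7% of all tested genes passed that mark. In sfr6-3 and in cob-6 against WT 0 were called, where 0.153% and 0.0954% of all tested genes were.

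AT4G23680 had 91.4 and 85.3 CPM in the double mutant and 56.1 and 49.5 in cob-6, with 78.6 and 85.1 in sfr6-3 and 63.0 and 47.0 in WT. It was higher in both sfr6-3 genotypes than in the other 2 without overlap, a split whose share over all genes was not counted. It rose in the double mutant against cob-6 by 0.74 ± 0.16 (adjusted p = 0.0383). That call was lost without any 1 of the 6 mutant libraries, with adjusted p from 0.0508 to 0.331. AT3G26460 had CPM of 1.44 and 1.08 in the double mutant, 2.84 and 5.23 in cob-6, 1.23 and 1.46 in sfr6-3, and 4.12 and 7.40 in WT, and fell in the double mutant against WT by 2.19 ± 0.47 (adjusted p = 0.0458). Its adjusted p was 0.0165 without WT replicate 1 and 0.750 without WT replicate 2, and the call was also lost without double mutant replicate 2, cob-6 replicate 2 or either sfr6-3 library, with adjusted p from 0.0597 to 0.143. AT4G14060 had 0 and 1 reads in the double mutant, 10 and 20 in cob-6, 9 and 7 in sfr6-3, and 285 and 69 in WT, and was called lower in the double mutant against WT (adjusted p = 0.0343), with an adjusted p of 0.0243 without WT replicate 1 and 0.664 without WT replicate 2, and the call was lost without any 1 of the 6 mutant libraries, with adjusted p from 0.0551 to 0.105. The most abundant of the 20 per length, AT4G23670 and AT1G23130, averaged 386 and 248 CPM per kb over the 8 libraries and were called in no contrast.

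**Figure D4:**
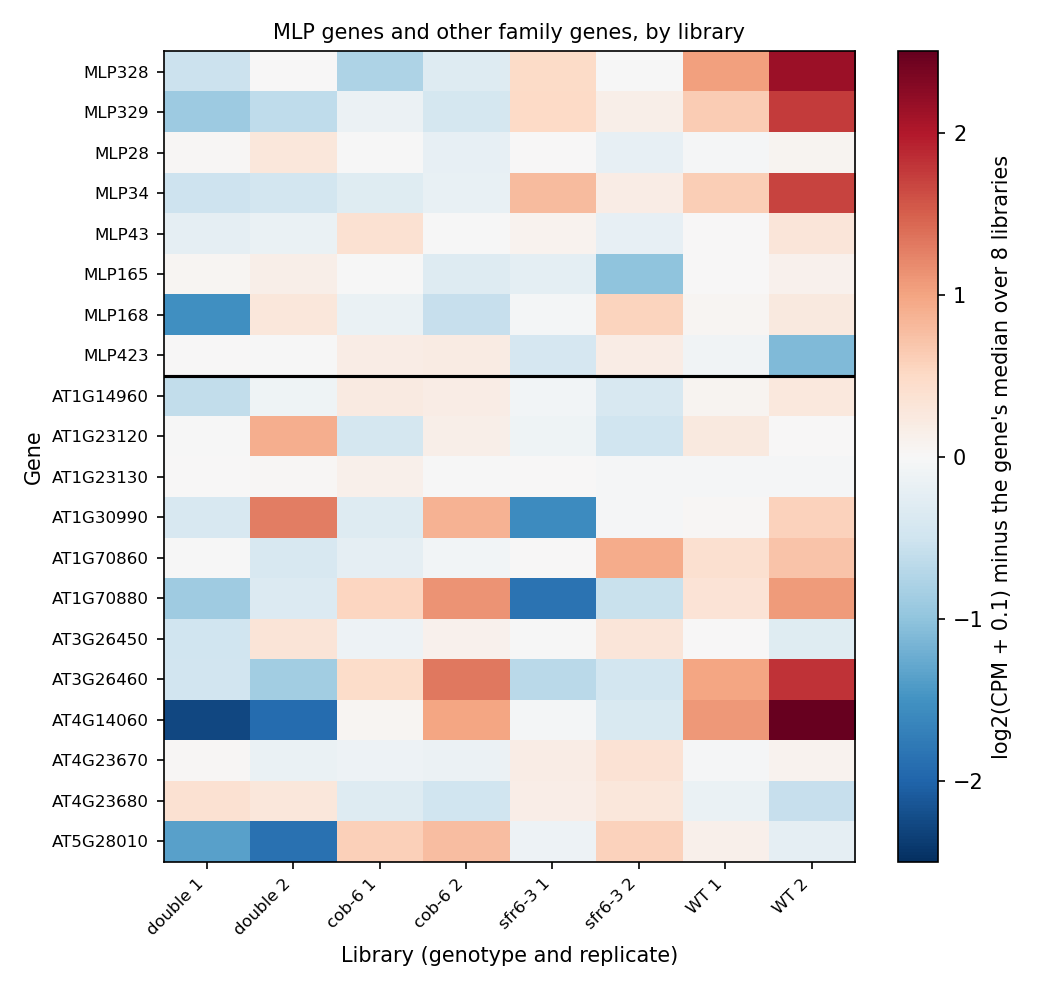
Log2(CPM + 0.1) minus each gene's median over the 8 libraries (colour, blue lower and red higher) for the 8 tested MLP genes above the black line and the 12 other tested family genes below it, by library (x axis: double mutant, cob-6, sfr6-3, WT). The darkest red cells of MLP328, MLP329 and MLP34 lie in WT replicate 2, where MLP328 reached 59.3 CPM, and AT1G23130 is nearly even, between 185 and 209 CPM.

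The PYR/PYL receptors, which bind abscisic acid in the same fold, showed no call. Of 14 genes 10 passed the filter, and 0 were called in each of the 6 contrasts. Between 0.0191% and 1.58% of all tested genes were called in these contrasts, so 0 of 10 is near those shares. PYL8 had CPM of 204 and 206 in the double mutant, 283 and 252 in cob-6, 213 and 169 in sfr6-3, and 250 and 328 in WT. PYR1 had CPM of 181 and 195 in the double mutant, 108 and 159 in cob-6, 130 and 153 in sfr6-3, and 171 and 150 in WT. PYL8 was lower in both sfr6-3 genotypes than in the other 2 without overlap, and the share of all genes with such a split was not counted.

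Tissue markers were read in the same libraries. The 20 root markers had summed CPM of 241 and 260 in the double mutant, 207 and 215 in cob-6, 298 and 276 in sfr6-3, and 252 and 305 in WT, a 1.47-fold range. Both genotypes with cob-6 lay below sfr6-3, as MLP329 and MLP34 did, and the part of root RNA in these results was not tested. Of the 20 root markers 0 were called in the double mutant against sfr6-3, where 0.229% of all tested genes were. Their median there was -0.36 and 14 were negative. Against cob-6 the median of the 20 was 0.21 and 8 were negative, and the sum was higher in both double mutant libraries than in cob-6. POT5, which encodes a root potassium transporter, was at 0 in both double mutant libraries. It was the 1 root marker called against cob-6, lower in the double mutant (adjusted p = 0.00325), where 1.58% of all tested genes were called. CASP5, a gene of the root endodermis, was at 0 in double mutant replicate 1 and cob-6 replicate 2. The 20 green tissue markers had summed CPM of 69176 and 74863 in the double mutant, 57050 and 66838 in cob-6, 57846 and 72575 in sfr6-3, and 72081 and 78286 in WT, a 1.37-fold range. Of these markers 0 were called in each contrast, where 0.0191% to 1.58% of all tested genes were, and 0 were at 0.

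The genes most like MLP328 were ranked by Pearson's r of log2 CPM over the 7 libraries without WT replicate 1, among 17430 genes whose mean log2 CPM reached 1. The 5 highest were AT2G17880 (r = 0.986), which encodes a protein with a DnaJ domain, the casein kinase gene ckl4 (r = 0.979), the callose synthase gene CALS1 (r = 0.978), the peroxidase gene PER30 (r = 0.976) and SBP1 (r = 0.976). AT2G17880 had CPM of 25.1 and 35.3 in the double mutant, 25.5 and 31.7 in cob-6, 44.3 and 35.0 in sfr6-3, and 38.6 and 73.5 in WT. The range of ckl4 was narrow, from 50.7 to 58.6 CPM, and over all 8 libraries its r was 0.748 and its rank 502. The 3 lowest were the aliphatic glucosinolate regulator MYB28 (r = -0.977), PNSL3 (r = -0.971), a nuclear gene for a chloroplast protein, and the ribosomal protein gene AT1G61580 (r = -0.968). MLP34 ranked 35 at r = 0.934, MLP329 ranked 84 at r = 0.902, and MLP423 ranked 17417 at r = -0.949. All points share libraries and genotypes, and WT replicate 2 is the highest MLP328 value among them. Over the 6 mutant libraries alone, the r with MLP328 was 0.772 for MLP34, 0.598 for MLP329 and -0.736 for MLP423.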

How the data were processed

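The authors deposited whole-number counts per gene for 8 libraries, per the file headers: total, unique, exon and intron gene reads, with RPKM values, which equalled exon reads per exon length and library total within 0.1% and were used only for that check. Their second sheet holds a signed fold, used as a score, beside p-values from EDGE for the double mutant against cob-6, per the file headers. The aligner, counting method, strand setting and build were not given in the sources used here. Columns belonging to other series numbered 0 in this workbook.

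From the unique counts, edgeR 4.0.16 (R 4.3.3) fitted 1 mean per genotype over 8 libraries (filterByExpr, TMM, 4 residual degrees of freedom, prior degrees of freedom 9.25), with Benjamini-Hochberg adjustment over 20955 genes and a call at 0.05. SE is the log2 change over the root of the F statistic. Likeness used log2 CPM with a prior count of 2, and levels per length used unique exon reads per kb of exon. The script was tested on simulated data. DESeq2 1.42.0, other read types, scalings, filters and left-out libraries were alternatives. Reference genes and sequences are RefSeq TAIR10.1, aligned with Biopython 1.88. Members, gene lists and the rule for named genes (all members, COB, MED16, the 5 most and 3 least like MLP328, and up to 3 called or otherwise the 2 most abundant genes of other lists) were chosen with earlier results of these data known. TATAAA, the ratio of MLP34 to MLP28 and CASP5 were chosen after their values were seen.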

Additional observations from a re-analysis of the deposited data

How the results depend on the processing

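In the order double mutant against sfr6-3, against cob-6, sfr6-3 against WT, cob-6 against WT, double mutant against WT and the interaction, edgeR called 48, 331, 32, 20, 228 and 4 genes, and 0, 0, 0, 1, 3 and 0 members. Here and below, the member counts in cob-6 against WT and in the interaction are a description with no test. MLP328 was chosen on the former contrast, which the interaction contains. The member counts in the other contrasts with WT share the WT libraries with that choice. Total reads gave 16, 291, 28, 19, 181 and 11 genes, exon reads 13, 270, 19, 18, 176 and 8, and RLE factors 51, 327, 31, 20, 237 and 4. With no filter on low counts there were 833, 1332, 385, 336, 1225 and 207 genes and 2, 0, 3, 4, 3 and 1 members. DESeq2 called 511, 1014, 170, 132, 732 and 78 genes and 1, 0, 2, 2, 3 and 1 members. Subtracting the other 7 libraries from WT replicate 1 gave 95, 419, 151, 88, 748 and 5 genes and 1, 0, 2, 3, 3 and 0 members. The 6 mutant libraries alone, chosen after seeing the data, gave 89 and 414 genes and 2 and 0 members in the first 2 contrasts.

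Leaving out 1 library at a time gave 0 to 684, 94 to 1310, 3 to 178, 0 to 174, 62 to 850 and 1 to 20 genes, and 0 to 2, 0, 0 to 3, 0 to 4, 2 to 4 and 0 members. Where a genotype was left with 1 library, that library was assumed to vary like the others. Direction turned for MLP328 in the double mutant against cob-6 (-0.0058 without double mutant replicate 2, up to 0.54) and for MLP329 and MLP34 in the interaction (-0.17 and -0.16 without WT replicate 2, up to 0.94 and 0.92). Of 461 alternative log2 changes of named genes, 398 kept direction and side of the threshold. The cause of these shifts was not tested.

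With the replicate number as a block the counts were 16, 275, 38, 22, 206 and 6. Same-numbered libraries correlated at -0.075 to 0.056 in their deviations, so no shared shift by number was seen. That cannot show whether same-numbered libraries were handled together, and the values with WT use WT replicate 1, which is not treated as independent. Over all 8 libraries the r of MLP34 and MLP329 with MLP328 was 0.929 and 0.907. With 2 libraries per genotype, changes below about the printed intervals were not detectable.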
